A study of Trichosurus vulpecula with 6 samples.

Results

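The genes described here are 40 genes of the cell cycle: 12 genes of S phase, 26 genes of mitosis and 2 transcription factors, FOXM1 and MYBL2. They were named by symbol and not by value, but earlier results of these data were known when they were chosen. All 40 were found in the possum RefSeq gene table, and all 40 passed the expression filter (a mean of at least 1 TPM over the 6 libraries), out of 15646 genes that did so. They were measured in ear punch skin of adult female common brushtail possums, *Trichosurus vulpecula*, of which 3 had a grey coat and 3 a black coat. Each library came from a different possum. About 50 mg of skin was kept in RNAlater, and 250 ng of RNA went into each poly(A)-enriched, strand-specific library. The question the design puts to these genes is whether black and grey skin differed in their expression.

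Cells copy their DNA in S phase and divide it in mitosis, and most genes of either step are transcribed only while a cell is cycling. In skin the dividing cells are found mainly in the basal layer of the epidermis, in the sebaceous gland and in the matrix of growing hair follicles, while immune cells can also divide in the tissue. Genes of replication are switched on by the E2F factors at the G1/S boundary, and genes of mitosis later, by MYBL2 with the MuvB complex and by FOXM1.

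Values are in TPM, the abundance of transcripts per unit length scaled to the same total in each library and summed over the assembled transcripts of a gene. Sequencing depth ranged from 4.17 gigabases aligned (grey replicate 1) to 10.2 gigabases (grey replicate 3), in reads of 120 bp. The labelled tissue was borne out by the epidermal cadherin DSG1, at 941 to 1645 TPM in the 6 libraries. Several libraries stood apart before any cell cycle gene was considered. Black replicate 1 held 3429 TPM of skeletal muscle genes, against 7.47 to 14.7 TPM elsewhere, grey replicate 1 held 1196 TPM of hair shaft and inner root sheath genes, against 100.4 to 156 TPM elsewhere, and grey replicate 3 held 7795 TPM of the neutrophil and keratinocyte alarmin S100A8, against 110 to 803 TPM, together with the lowest fibroblast sum. Each of these libraries is left out in turn below.

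All 12 S phase genes were assembled in every library, and none was listed at 0. Values are given in the order of grey replicates 1, 2 and 3 and then black replicates 1, 2 and 3. PCNA, the sliding clamp of DNA polymerase (chromosome 3, 315854649 to 315860377, minus strand, assembly mTriVul1.pri), was the most abundant of the 40 genes, with 85.0, 99.99 and 79.6 TPM in grey possums and 69.1, 89.4 and 117 TPM in black possums. The 3 grey libraries averaged 88.2 ± 10.6 TPM and the 3 black libraries 91.9 ± 24.1 TPM (mean ± SD). The highest and the lowest library were thus both black, and the grey values lay between them.

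The 6 subunits of the MCM helicase, which opens the DNA ahead of the replication fork, followed a similar order. MCM6, the most abundant subunit, stood at 31.9, 33.3 and 22.5 TPM across the grey libraries and 25.9, 41.8 and 43.7 TPM in the black. MCM2 gave 14.5, 18.4 and 9.92 TPM and then 7.13, 19.3 and 20.1 TPM. MCM3 gave 13.2, 19.0 and 11.9 TPM and then 8.98, 19.4 and 21.8 TPM. All 6 subunits were highest in black replicate 3, and 5 of 6 were lowest in black replicate 1, the exception being MCM6, which was lowest in grey replicate 3. MCM4 reached 17.7, 22.8 and 15.4 TPM in grey possums and 13.7, 23.1 and 24.8 TPM in black possums. MCM5 reached 11.5, 13.7 and 10.6 TPM and then 8.84, 10.3 and 16.0 TPM. MCM7 reached 22.0, 27.2 and 18.8 TPM and then 17.2, 24.1 and 27.5 TPM. The grey range lay inside the black range for each of the subunits except MCM6, whose lowest value was grey. Their summed level was 111, 134 and 89.2 TPM for grey and 81.7, 138 and 154 TPM for black skin.

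Among the genes that supply DNA precursors, the 2 subunits of ribonucleotide reductase behaved differently. RRM1, the large subunit, had the narrowest range of the 40 genes in TPM, with 26.0, 31.6 and 25.0 TPM across the grey libraries and 31.0, 29.9 and 34.2 TPM in the black, a ratio of highest to lowest of 1.37. RRM2, the small subunit, had the widest range in TPM, with 16.0, 17.3 and 7.17 TPM and then 5.44, 15.3 and 26.4 TPM, a ratio of 4.86. In cycling cells the protein of RRM2 is the limiting subunit and is restricted to S phase, whereas that of RRM1 is long-lived. The level of RRM2 relative to RRM1 was 0.615, 0.547 and 0.288 in the grey and 0.176, 0.513 and 0.773 in the black libraries. TYMS, the thymidylate synthase, stood at 10.3, 18.1 and 5.55 TPM in grey possums and 6.21, 8.84 and 17.8 TPM in black possums. As with RRM2, grey replicate 3 and black replicate 1 held the lowest values.

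UHRF1, which carries DNA methylation over to the new strand, gave 8.36, 8.53 and 2.93 TPM for grey and 4.10, 5.24 and 11.0 TPM for black skin. Its longest transcript measured 2084 bases in grey replicate 3, against 3673 to 4052 bases in the other libraries. CCNE2, a cyclin E that drives entry into S phase with CDK2, had another order, with 9.93, 4.78 and 7.14 TPM across the grey libraries and 3.95, 4.03 and 7.55 TPM in the black. CCNE2 and TYMS were the S phase genes whose highest level in TPM was not in black replicate 3.

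**Figure D1:**
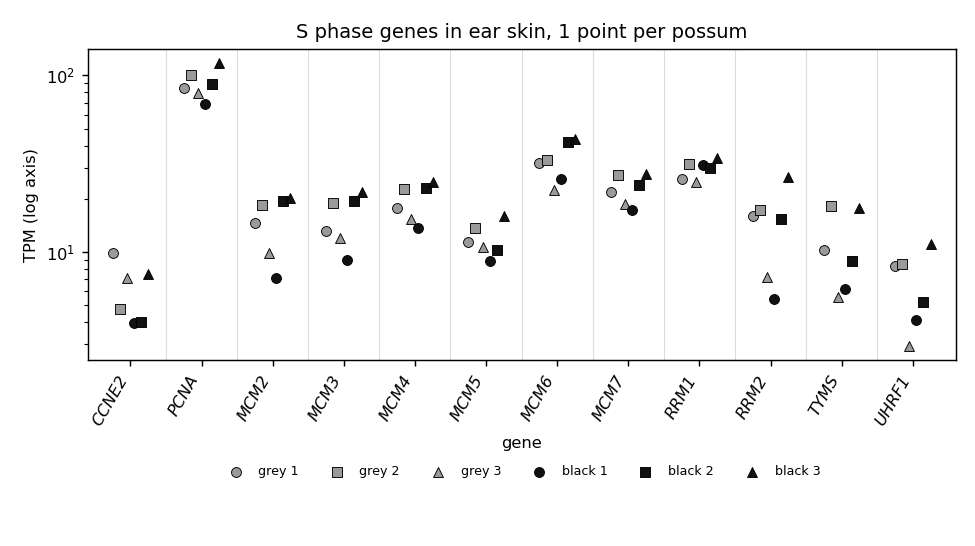
Levels of the 12 S phase genes in TPM, on a log axis, with 1 point for each of the 3 grey and 3 black libraries. In 10 of the 12 genes the highest point is black replicate 3, and the points of both colours overlap in all 12.

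The 26 genes of mitosis were also assembled in all 6 libraries. MKI67, the proliferation antigen Ki-67 that coats mitotic chromosomes (chromosome 8, 7764892 to 7787433, plus strand), was the most abundant of them by mean TPM, at 23.8, 25.7 and 14.1 TPM in grey possums and 25.0, 20.4 and 31.2 TPM in black possums. TOP2A, the topoisomerase that untangles sister chromatids (chromosome 4, 184759227 to 184784007, plus strand), gave 16.9, 20.4 and 6.84 TPM and then 11.2, 7.04 and 26.5 TPM. Grey replicate 3 was lowest for both genes and black replicate 3 highest.

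CDK1 is the kinase that starts mitosis when bound to a cyclin A or B. It stood at 12.9, 10.7 and 3.33 TPM for grey and 6.21, 5.91 and 14.0 TPM for black skin. CCNB1 (chromosome 1, 435903320 to 435910106, plus strand) was nearly level in 5 libraries, at 15.9, 17.6 and 16.1 TPM in grey and 13.0 and 12.6 TPM in black replicates 1 and 2, and reached 32.0 TPM in black replicate 3. The mean of CCNB1 was 16.5 ± 0.914 TPM across the grey libraries and 19.2 ± 11.1 TPM in the black (SD, n = 3 each), so that 1 library set the spread of the black group. CCNA2 showed the same shape, with 4.34, 4.97 and 4.16 TPM and then 3.45, 3.74 and 12.2 TPM. CCNB2 did not, with 8.49, 8.39 and 10.8 TPM in grey possums and 6.94, 11.0 and 9.09 TPM in black possums.

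The kinases and checkpoint proteins of mitosis were present at low levels. PLK1, the polo kinase, gave 5.30, 4.72 and 3.74 TPM for grey and 4.47, 3.31 and 8.07 TPM for black skin. AURKB, the catalytic subunit of the chromosomal passenger complex, gave 8.51, 7.44 and 5.39 TPM and then 5.28, 4.29 and 11.9 TPM. Both were lowest in black replicate 2 and highest in black replicate 3. BIRC5 (survivin), a partner of AURKB in the same complex, was ordered differently, at 11.0, 28.8 and 12.0 TPM across the grey libraries and 7.41, 20.8 and 29.0 TPM in the black. BUB1, a kinase of the spindle checkpoint, gave 8.59, 3.83 and 4.69 TPM and then 5.14, 2.98 and 7.09 TPM. The remaining kinases and checkpoint genes lay between 3.02 and 8.83 TPM for AURKA, which acts at spindle poles, between 1.80 and 6.96 TPM for BUB1B and between 3.53 and 6.96 TPM for TTK, all highest in black replicate 3.

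CDC20 and UBE2C belong to the machinery that destroys cyclins at the end of mitosis, as activator and as ubiquitin-conjugating enzyme of the anaphase-promoting complex. CDC20 stood at 12.7, 12.3 and 10.1 TPM in grey possums and 9.95, 9.72 and 20.1 TPM in black possums. UBE2C stood at 20.5, 9.44 and 21.0 TPM and then 12.3, 21.5 and 20.6 TPM, lowest in grey replicate 2. Transcripts carrying the name UBE2C were also assembled at 5 other RefSeq loci, with 9.47 to 20.5 TPM per library, so reads of near-identical copies may be shared and the level of UBE2C is uncertain.

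Among the proteins of the spindle and of cytokinesis, the motor KIF11, which pushes spindle poles apart, gave 9.49, 3.81 and 1.97 TPM for grey and 3.38, 2.47 and 5.87 TPM for black skin. PRC1, which bundles microtubules of the central spindle, gave 15.2, 13.9 and 11.8 TPM and then 10.2, 11.1 and 19.7 TPM. The central spindle motors KIF23 (4.47 to 11.1 TPM) and KIF20A (5.21 to 16.8 TPM), the cytokinetic ring protein ANLN (6.96 to 15.8 TPM), the condensin subunit NCAPG (4.66 to 8.45 TPM) and the microtubule-binding protein NUSAP1 (5.98 to 23.4 TPM) were each highest in black replicate 3. The kinetochore motor CENPE (4.16 to 16.8 TPM), the kinetochore protein CENPF (2.61 to 8.16 TPM) and the cytokinesis protein ECT2 (3.38 to 11.8 TPM) were highest in grey replicate 1 in TPM, and the spindle assembly factor TPX2 (8.53 to 15.6 TPM) in grey replicate 2.

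The transcription factors were the least abundant members by mean TPM. FOXM1 stood at 3.68, 1.84 and 1.15 TPM across the grey libraries and 0.899, 1.60 and 1.90 TPM in the black. Its highest value, in grey replicate 1, rested on 24.8 reads (coverage over read length). The longest FOXM1 transcript measured 603 bases there, against 3367 bases in black replicate 3. MYBL2 stood at 3.77, 2.71 and 2.41 TPM and then 5.24, 2.53 and 2.62 TPM. Neither was highest in black replicate 3 on this scale.

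**Figure D2:**
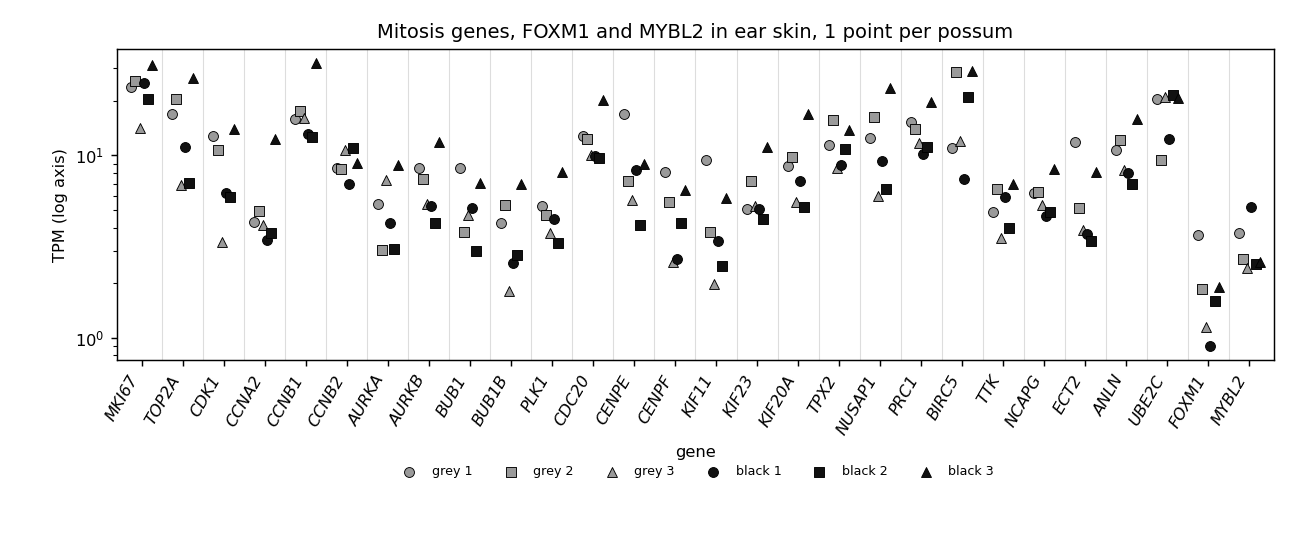
Levels of the 26 genes of mitosis and of FOXM1 and MYBL2 in TPM, on a log axis, with 1 point for each of the 3 grey and 3 black libraries. Black replicate 3 is the highest point in 18 of the 26 genes of mitosis, and CCNB1 and CCNA2 lie close together in the other 5 libraries.

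Black and grey skin were compared gene by gene with limma, a linear model whose variances are moderated across all 15646 genes, on log2(TPM + 1). Differences are black minus grey on that scale, which understates changes of low genes, and a gene was called at a Benjamini-Hochberg adjusted p below 0.05. None of the 40 genes was called (0 of 40, limma, adjusted p = 1.00 for each), and the background was low as well, since 3 genes of all those tested, or 0.0192%, were called. At an unadjusted p below 0.05 the count was 0 of the 40 genes against 2.30% of all genes. The groups overlapped for each of the 40 genes, whereas 6.37% of all genes had groups that did not overlap.

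The genes with the smallest unadjusted p were spread over both phases and both directions. CCNE2 differed by -0.42 (SE 0.34, 95% interval -1.22 to 0.37), a gene of S phase entry. RRM1 differed by 0.20 (SE 0.16, interval -0.18 to 0.58) and MCM6 by 0.32 (SE 0.26, interval -0.30 to 0.94). MKI67 differed by 0.28 (SE 0.27, interval -0.37 to 0.93) and FOXM1 by -0.33 (SE 0.39, interval -1.27 to 0.60). Each had a limma adjusted p of 1.00 and an interval that held 0, and CCNE2 and MCM6 gave the extreme differences of the 40 genes in TPM.

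The precision of the comparison varied among the genes. The 95% interval reached 0.38 either side of the estimate for RRM1 and 1.36 either side for RRM2, so that a doubling of RRM2 in either coat colour lay within its interval of -1.30 to 1.42. For CDK1 the interval ran from -1.20 to 1.26 and for TOP2A from -1.36 to 1.25. For PCNA it ran from -0.50 to 0.56, for MCM7 from -0.54 to 0.56 and for CCNB2 from -0.57 to 0.48. In bulk skin fewer dividing cells and less RNA per dividing cell cannot be told apart, whichever gene is read.

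By phase, 9 of the 12 S phase genes had a difference above 0 and their median was 0.038, while 13 of the 26 genes of mitosis did and their median was 0.0095. Over all genes 8912 of 15646 had a difference above 0, beside 23 of the 40 genes, and the median over all genes was 0.037. The summed level of the S phase genes was 266 ± 49.1 TPM in grey possums and 287 ± 83.3 TPM in black possums, and that of the genes of mitosis 247 ± 49.9 TPM and 258 ± 108.0 TPM (SD, n = 3 each). These directions rested on single animals. Without black replicate 3 the number of the 40 genes above 0 went from 23 to 6 and the medians to -0.18 for S phase and -0.31 for mitosis, and without grey replicate 3 they went to 11 genes and to -0.12 for both phases. Without black replicate 1, the library with muscle genes, 33 genes were above 0 and the S phase median was 0.29. The count was 31 without grey replicate 1, 28 without grey replicate 2 and 27 without black replicate 2, and in the last case the mitosis median was 0.20.

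**Figure D3:**
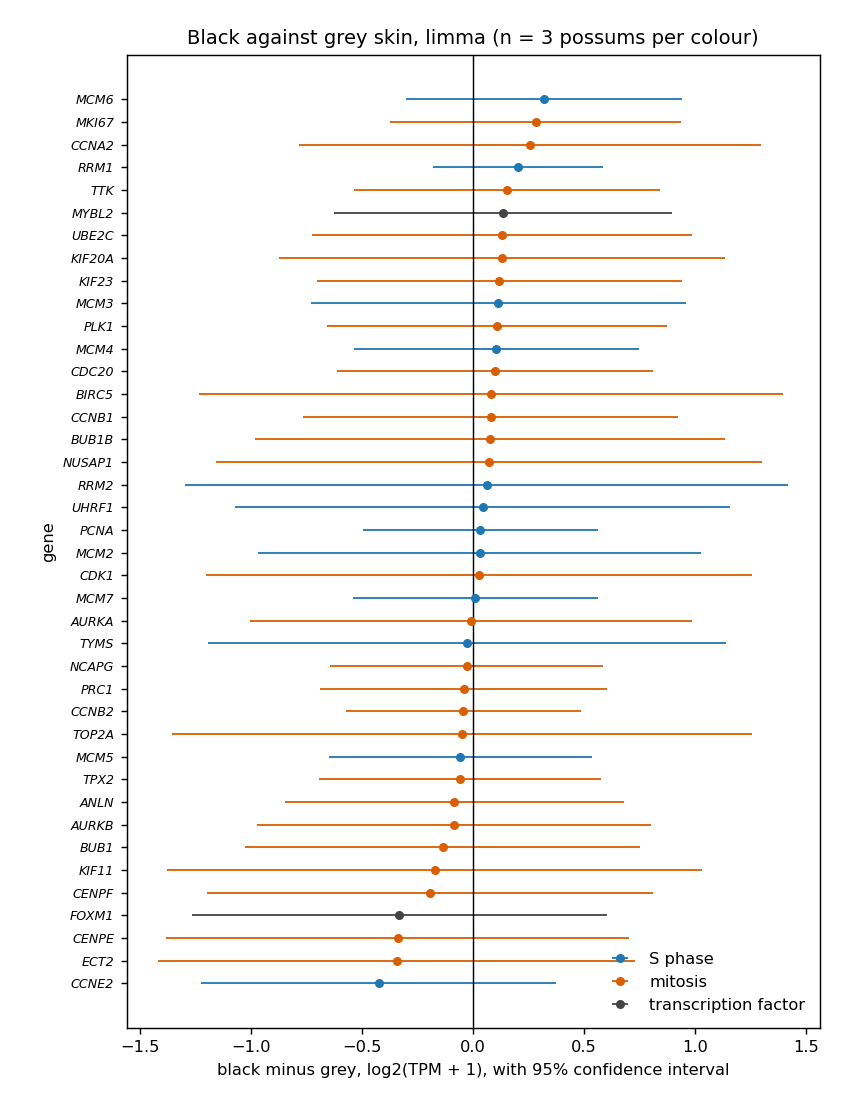
Difference between black and grey skin for each of the 40 genes, on the log2(TPM + 1) scale, with its 95% interval from limma (3 libraries per colour). The estimates lie between -0.42 and 0.32 and every interval includes 0.

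Possums of one colour differed widely in these genes. The median SD within a colour, on the log2 scale, was 0.41 for the S phase genes and 0.53 for the genes of mitosis, against 0.32 over all genes tested. The ratio of highest to lowest library had a median of 2.19 for S phase and 2.83 for mitosis. No test was made of these spreads, which also depend on a gene's level.

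Libraries were then set against each other by phase. For every gene the log2 level was set against the gene's mean over the 6 libraries, and the median of these deviations was taken per phase. For S phase it was -0.02, 0.25 and -0.30 in the grey and -0.47, 0.06 and 0.43 in the black libraries. For mitosis it was 0.12, 0.10 and -0.32 in the grey and -0.28, -0.38 and 0.64 in the black libraries. Over all genes tested the medians lay between -0.04 and 0.04. Black replicate 3 therefore stood highest in both phases, grey replicate 3 and black replicate 1 stood low in both, and each coat colour held libraries above and below the mean. All 12 S phase genes and all 26 genes of mitosis were above their own mean in black replicate 3, against 54.5% of all genes. Black replicate 3 was the highest library for 28 of the 40 genes, against 17.3% of all genes.

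In black replicate 2 the phases differed: 8 of the 12 S phase genes, including 5 of 6 MCM subunits, were above their mean, while 3 of the 26 genes of mitosis were. It was the lowest library for 10 of the 26 genes of mitosis and for 0 of the 12 S phase genes. The median deviation of mitosis minus that of S phase was -0.44 in black replicate 2 and lay between -0.15 and 0.21 in the other 5 libraries. The summed level of mitosis genes relative to S phase genes was 1.05, 0.865 and 0.876 in the grey and 0.966, 0.679 and 1.04 in the black libraries. Since this is 1 library, the difference has no replicate.

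**Figure D4:**
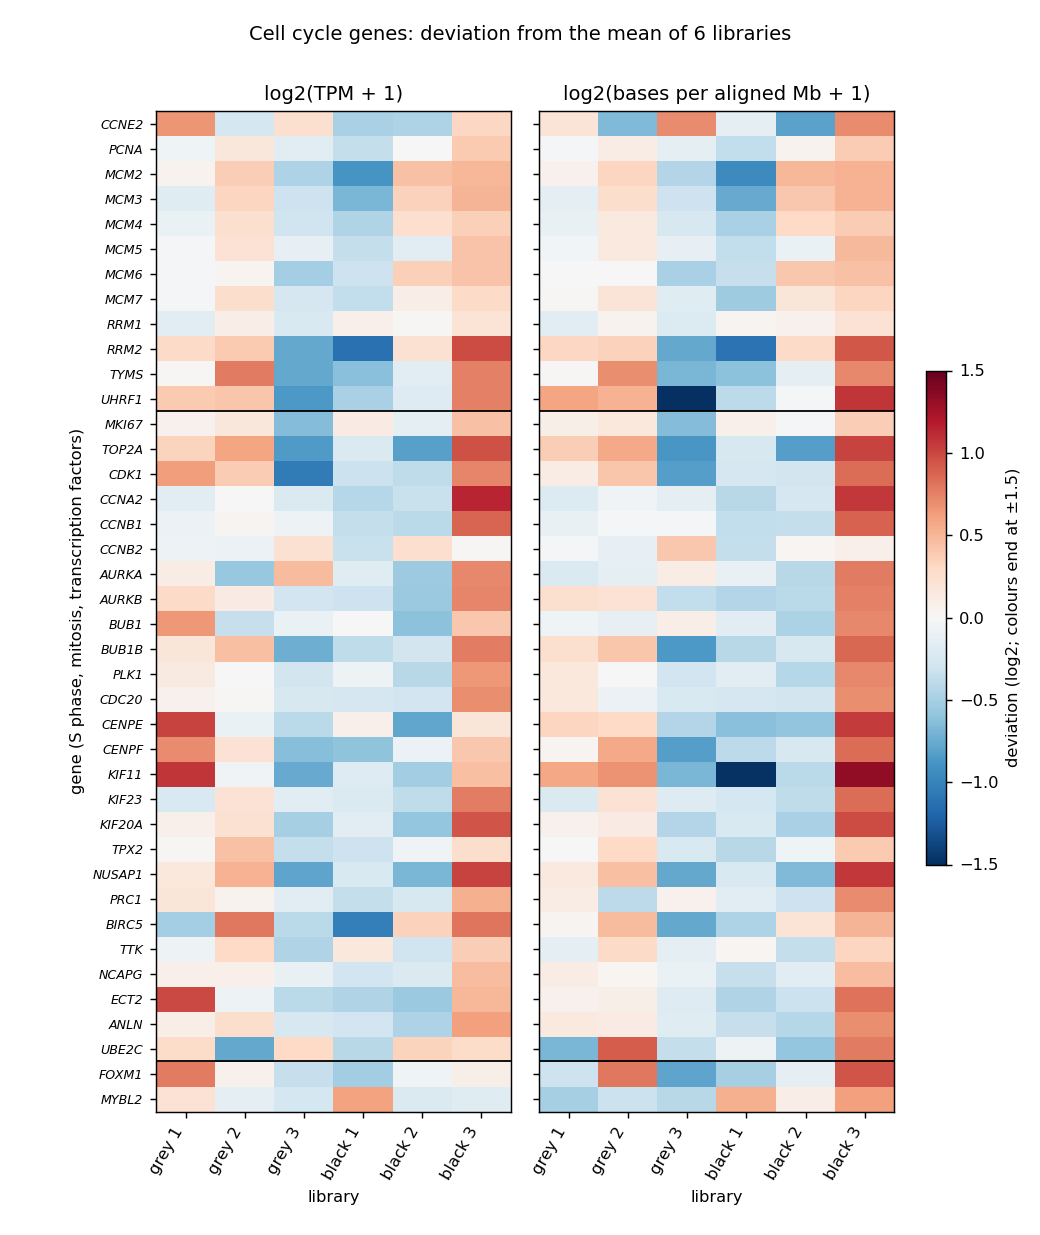
Log2 deviation of each of the 40 genes (rows, grouped by phase) from its mean over the 6 libraries (columns), as a colour scale, in TPM on the left and in bases of coverage per megabase aligned on the right. In TPM black replicate 3 is above the mean for 39 of the 40 genes, and in black replicate 2 most S phase rows are above the mean while 23 of 26 mitosis rows lie below it.

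The scale mattered for single genes. Transcripts were assembled separately in each library, and TPM divides by the assembled length, so it can depend on how a gene was assembled. The effect of assembled length on TPM was not tested. For 23 of the 40 genes (10 of S phase, 13 of mitosis) the longest transcript in each library was at least 80% as long as in the library where it was longest. For the other 17, among them the S phase genes CCNE2 and UHRF1, it was not. The longest KIF11 transcript measured 7203, 8495 and 5444 bases in the grey and 1992, 8146 and 8504 bases in the black libraries, and the longest UBE2C transcript 231, 2531 and 344 bases and then 956, 238 and 1061 bases. All levels were therefore also taken as bases of coverage per megabase aligned, which does not divide by length.

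On the coverage scale black replicate 3 was the highest library for 38 of the 40 genes, among them all 12 S phase genes and both transcription factors, against 18.3% of all genes. The exceptions were CCNB2, highest in grey replicate 3, and UBE2C, highest in grey replicate 2. KIF11 then stood at 14.9, 15.9 and 5.62 bases per megabase for grey and 2.80, 7.07 and 25.7 for black skin. The high TPM value of grey replicate 1, the shallowest library, was not seen on this scale. Over all genes that library was highest for 10.3% in coverage, against 16.6% in TPM. Coverage is counted only over the assembled length, which reached 1992 bases for KIF11 in black replicate 1. Assembled transcripts that ran well beyond the span of a gene may also add coverage from outside it. There were 6 of these for KIF11, 12 for MKI67 and 8 for CENPF, while most of the 40 genes had none. The cause of the differences between the scales was not tested. FOXM1 stood at 0.713, 2.70 and 0.233 bases per megabase in the grey libraries and 0.513, 0.921 and 3.10 in the black, and its difference turned from -0.33 in TPM to 0.20. CCNE2, whose longest transcript ran from 1335 to 2650 bases over the libraries, differed by -0.16 on this scale, against -0.42 in TPM. MYBL2 stood at 3.43, 3.99 and 3.67 bases per megabase in grey possums and 8.02, 5.71 and 8.58 in black possums, so that the groups did not overlap. The longest MYBL2 transcript, to which coverage is not scaled, followed the same split, at 2388, 4225 and 3975 bases in the grey and 5642, 5551 and 6441 bases in the black libraries. Its difference there was 0.83 (SE 0.24, limma adjusted p = 1.00), against 0.13 in TPM. It was the only 1 of the 40 genes without overlap on the coverage scale (6.53% of all genes) and the only 1 with an unadjusted p below 0.05 (2.33% of all genes). Black replicate 2 was low in mitosis relative to S phase on this scale too, with a ratio of 0.915 against 1.18 to 1.53 in the other libraries. Its summed mitosis coverage was not the lowest, at 340 bases per megabase against 307 in grey replicate 3 and 349 in black replicate 1. Its S phase sum was 372, below only the 448 of black replicate 3. The median deviation in black replicate 2 was -0.36 for mitosis and 0.13 for S phase.

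Other genes of the cycle, listed separately from the 40, likewise had no called gene. Of 33 further genes of replication, 31 were measured, and 0 were called by limma, with 0 at an unadjusted p below 0.05 and a median difference of 0.0026. Of 49 further genes of mitosis, 47 were measured and 0 were called, with a median of 0.048. The exception at an unadjusted p below 0.05 was SKA1, a microtubule-binding protein of the kinetochore, at 3.62, 4.65 and 1.61 TPM for grey and 12.9, 3.98 and 11.6 TPM for black skin (limma adjusted p = 1.00). NUF2, of the kinetochore complex that holds microtubules, gave 6.61, 8.65 and 4.76 TPM and then 13.1, 5.52 and 15.3 TPM. SKA3, which works in a complex with SKA1, lay the other way, at 4.45, 6.21 and 3.43 TPM and then 2.50, 2.93 and 4.09 TPM. The further genes of mitosis were highest in black replicate 3 for 30 of 47 genes and lowest in black replicate 2 for 19 of 47. The further genes of replication were highest in black replicate 3 for 11 of 31. In black replicate 2 they did not stand as the 12 S phase genes did, with 9 of 31 above their mean and a median deviation of -0.07 (18 of 31 and 0.02 on the coverage scale), and in grey replicate 2 their median was 0.02. GMNN (geminin), which blocks a repeated start of replication, was highest in grey replicate 2, at 42.5 TPM against 11.9 to 19.2 TPM in the other libraries.

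Genes that act before S phase, the D cyclins, their kinases, the E2F and retinoblastoma families and the inhibitors, varied less by library in TPM. Of 31 listed, 28 were measured, 0 were called and 0 had an unadjusted p below 0.05, with a median difference of -0.031. Their median deviation lay between -0.11 and 0.07 in the 6 libraries, whereas on the coverage scale it was highest in black replicate 3, at 0.21, with 20 of 28 genes above their mean. CCND2, a D cyclin, was highest in black replicate 3 at 24.9 TPM, against 8.15 to 16.8 TPM elsewhere. E2F1, an activator of S phase genes, stood at 4.51, 7.81 and 5.70 TPM across the grey libraries and 3.17, 4.92 and 5.58 TPM in the black. E2F4, a partner of the repressive complexes, was at 17.4 to 28.4 TPM in 5 libraries and is listed at 0 in black replicate 2, where a failed assembly and absent RNA cannot be told apart.

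Hair follicle genes had their highest levels in another library than the cell cycle genes. Of 37 genes of the hair matrix, shaft and inner root sheath 13 were measured, since many hair keratins carry no symbol in the possum gene table. They were highest in grey replicate 1 for 11 of 13 genes and in black replicate 3 for 0 of 13. KRT25, an inner root sheath keratin, stood at 687, 3.35 and 16.3 TPM in grey possums and 3.07, 2.90 and 2.85 TPM in black possums. TCHH (trichohyalin), of the same layer, stood at 199, 1.78 and 11.6 TPM in grey, and in black skin it is listed at 0 in replicate 1 and stood at 1.36 and 2.50 TPM in replicates 2 and 3. GATA3, a factor of that layer and of other skin cells, gave 56.8, 39.3 and 42.4 TPM and then 34.6, 37.4 and 36.4 TPM. In grey replicate 1 the median deviation of the hair genes was 0.95, beside -0.02 for S phase and 0.12 for mitosis. In black replicate 3 it was -0.15, beside 0.43 and 0.64. DSG4, a desmosomal cadherin of the shaft, is listed at 0 in black replicate 3. The part of hair follicle cells in the cell cycle levels was not tested.

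The outer root sheath and stem cell list, of which 9 of 12 genes were measured, had a median deviation of 0.69 in grey replicate 1 and -0.31 in black replicate 3. Its keratins KRT15, KRT17 and KRT6A were not measured. Its summed level ran from 433 to 709 TPM for grey and from 340 to 515 TPM for black skin. Most of that sum was a single keratin gene, KRT79, at 510, 571 and 304 TPM in the grey and 200, 378 and 212 TPM in the black libraries. Of 13 basal epidermis genes 11 were measured, without the basal keratins KRT5 and KRT14. The median deviation of the measured genes stayed between -0.14 and 0.19 in the 6 libraries, with 0.02 in both black replicates 2 and 3. The hemidesmosomal collagen COL17A1 stood at 190, 310 and 315 TPM across the grey libraries and 374, 371 and 310 TPM in the black. The summed level of the list was nevertheless 1456 TPM in black replicate 2 and 1955 TPM, its highest, in black replicate 3, where POSTN, a matrix protein that fibroblasts also make, stood at 953 TPM against 225 to 654 TPM elsewhere.

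Genes of the pan-leukocyte, macrophage and dendritic cell, and T and NK cell lists were mostly highest in the same library as the cell cycle genes. The 1 measured gene of the B and plasma cell list was highest there too. Other immune lists did not peak in black replicate 3. Its median deviation was -0.08 for neutrophil and inflammation genes and -0.23 for interferon response genes. For mast cell genes it was 0.30, against 0.57 in grey replicate 2. All 6 measured genes of 7 on the pan-leukocyte list were highest in black replicate 3, and their summed level ran from 78.9 to 121 TPM in grey possums and was 115, 110 and 247 TPM in black possums. LAPTM5, a lysosomal protein of blood cells, stood at 21.7, 16.3 and 13.9 TPM for grey and 19.5, 18.1 and 57.9 TPM for black skin. LCP1, the leukocyte plastin, stood at 17.6, 15.5 and 18.0 TPM and then 19.4, 17.3 and 45.1 TPM. CORO1A, a leukocyte actin regulator, is listed at 0 in grey replicates 1 and 3.

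Of 17 macrophage and dendritic cell genes 13 were measured, and 12 of the 13 were highest in black replicate 3. Their sum was 828, 611 and 511 TPM across the grey libraries and 857, 596 and 1658 TPM in the black. CD74, the invariant chain of antigen presentation, stood at 317, 175 and 79.2 TPM and then 328, 195 and 790 TPM. The complement genes C1QA and C1QC of tissue macrophages were highest there too, at 257 and 244 TPM. CD68, a lysosomal macrophage marker, is listed at 0 in grey replicate 3. Of 19 T and NK cell genes 13 were measured, and 8 of the 13 were highest in black replicate 3, with sums of 34.2 to 47.2 TPM in grey possums and of 29.4, 39.8 and 64.4 TPM in black possums. CD3D, of the T cell receptor complex, reached 10.8 TPM there, against 4.67 to 7.16 TPM elsewhere, while CD247 was highest in grey replicate 2, at 19.1 TPM, and CD2 is listed at 0 in grey replicate 1.

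In the other 5 libraries the immune lists and the cell cycle genes agreed in some and differed in others. Black replicate 2 was low in mitosis (-0.38), in macrophage and dendritic cell genes (-0.34) and in pan-leukocyte genes (-0.24). Its T and NK cell genes were not low (0.03). Grey replicate 1 was at 0.12 for mitosis and 0.09 for macrophage and dendritic cell genes. It was at -0.16 for pan-leukocyte genes and -0.10 for T and NK cell genes. Grey replicate 3 was low at -0.43 for macrophage and dendritic cell genes, -0.46 for pan-leukocyte genes and -0.30 and -0.32 for S phase and mitosis. The neutrophil and inflammation list went the other way in that library. Its median deviation was 1.18, and 5 of its 6 measured genes were highest there. Black replicate 1, lowest for 8 of the 12 S phase genes, had 0.10 for macrophage and dendritic cell genes and -0.11 for pan-leukocyte genes. Grey replicate 2, with 0.25 for S phase and 0.10 for mitosis, had -0.16 and -0.39 for those lists.

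Black replicate 3 was also high in lists of other cell types. Of 10 melanocyte genes 9 were above their mean there, with a median deviation of 0.61, although grey replicate 2 was higher, at 0.67. Of 10 measured fibroblast genes 8 were above their mean, with a median of 0.52, against 0.65 in grey replicate 1. On the coverage scale the fibroblast median of black replicate 3 was 0.79, and 8 of the 10 genes were highest there. The part of immune cells, melanocytes or fibroblasts in the cell cycle levels of black replicate 3 was not tested.

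**Figure D5:**
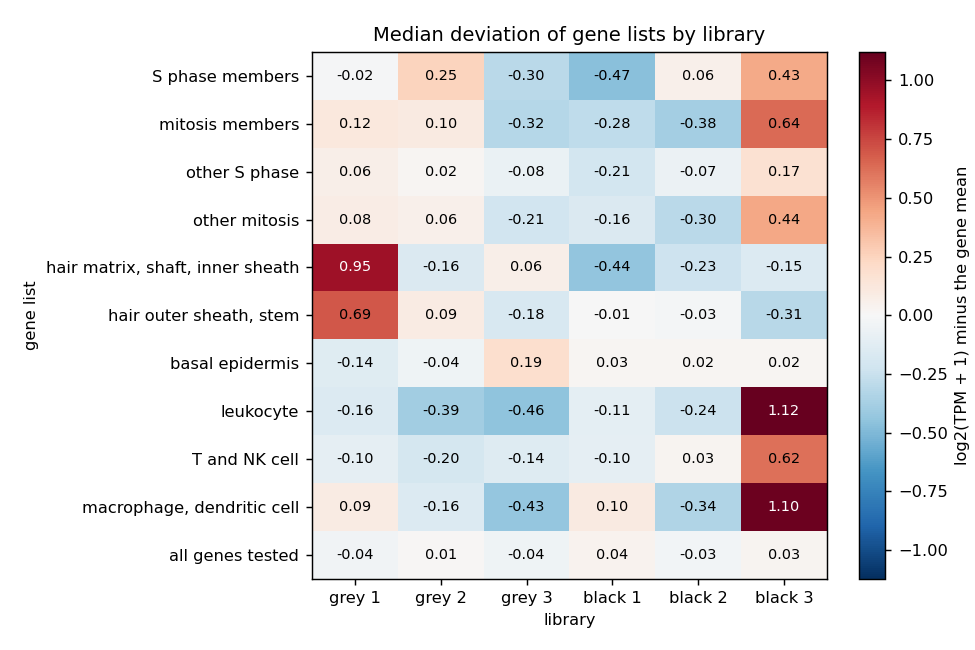
Median log2 deviation from the gene mean in each of the 6 libraries, for the cell cycle lists and for the hair follicle, epidermis and immune lists. Black replicate 3 is highest in the S phase (0.43), mitosis (0.64) and pan-leukocyte (1.12) lists, while the hair matrix list peaks in grey replicate 1 (0.95).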

How the data were processed

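The authors trimmed 120 bp reads (Trim Galore 0.6.10), mapped them to the possum assembly (HISAT2 2.2.1) and assembled transcripts in each library (StringTie 2.2.0). The deposited values are coverage, FPKM and TPM per transcript, so no count model was used. TPM was summed per gene. The RefSeq table gives spans without exons or strand, so these were inferred from matching transcripts (sharing 0.5 or more of their joint span, or with 80% containment), and 231783 of 274079 transcripts were assigned by exon overlap on their strand and 1337 by name. Aligned bases came from coverage and FPKM. The cell cycle genes had 19.9 or more reads per library (median 762), as coverage over read length, and precision is limited by 3 animals per colour.

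Black and grey were compared with limma 3.58.1 (R 4.3.3, trend) on log2(TPM + 1), for genes averaging 1 TPM or more, 2-sided. A run on simulated data was required only to return the mean change put in, and the power for small changes was not checked. Figures used Python 3.11.15 and matplotlib 3.10.9. Members and lists were chosen with earlier results of these data known. Named genes were all members, the 3 genes of smallest p in each other cell cycle list and the 3 of highest mean in each cell type list, of which some are printed. DSG4, CORO1A, CD68 and CD2 were named after their values were seen, as genes listed at 0. Alternatives were another pseudocount, filters, scalings, library weights, a replicate block, the coverage scale, multi-exon transcripts and leaving out each library. Restricting to near full-length members was added after seeing the data. Promoter sequences were not used here.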

Additional observations from a re-analysis of the deposited data

How the results depend on the processing

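The count of called cell cycle genes was 0 in limma under all 15 alternatives, with 0 at an unadjusted p below 0.05 except 1 (MYBL2) on the coverage scale. Over all genes the count of 3 fell to 1 among genes averaging 5 TPM or more and to 0 with a replicate block (362 at an unadjusted p below 0.05), and ran from 0 (without grey replicate 2, 520 unadjusted) to 4 when a library was left out, with 1 without black replicate 2. The differences of FOXM1 and CCNE2 were 0.20 and -0.16 on the coverage scale. The cause of these changes was not tested. Replicate numbers are shared between colours but did not pair the libraries (correlations of deviations -0.028, 0.015 and -0.046), and with the block the medians were 0.038 for S phase and 0.0095 for mitosis. Leaving out a library gave medians of -0.18 to 0.29 for S phase and -0.31 to 0.20 for mitosis, and log2 ratios of summed levels of -0.11 to 0.31 and -0.33 to 0.23. The mitosis median was -0.013 with upper quartile scaling and -0.0070 with quantile normalization. Restricted to near full-length genes the medians were 0.046 and 0.078. With 3 possums per colour the intervals given are wide for most genes.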
